A study of Mus musculus with 6 samples.

Results

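The outer flank past the SCR is the 1 Mb of mouse chromosome 3 that lies 0.5 to 1.5 Mb beyond the Sox2 control region (SCR), on the side facing away from Sox2. Its members are the DpnII restriction fragments of the mm9 genome with a midpoint from 35160501 to 36160500, and they number 2498 of the 391360 fragments of chromosome 3 in the files. The 3 libraries used here were made by 4C with DpnII and Csp6I from a bait at position 34660500 in the SCR: 2 from J1 mouse embryonic stem (ES) cells of strain 129S4/SvJae (ES replicates 1 and 2) and 1 from ES cells differentiated in vitro (NPC). ES cells were grown with LIF on feeder cells, which were removed by passaging. NPC were cultured for 6 days without LIF, with 5 μM retinoic acid over the last 4 days; the labels give J1 as their starting line, the study's methods F1 ES cells grown without feeders in 2 inhibitors, so line and growth condition cannot be told apart from differentiation. All cells were fixed with 2% formaldehyde for 10 min. The study calls the ES libraries biological replicates, and NPC has 1 library.

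In 4C, DNA that lies close together in the fixed nucleus is cut and ligated, and the pieces joined to 1 chosen bait are amplified and sequenced, so that reads on a fragment report its contacts with the bait. Contacts fall with distance along the chromosome, and places that stand above this fall are of interest as possible loops or domain borders. The SCR is a cluster of enhancers that pluripotent cells need to express Sox2, which encodes a transcription factor of the pluripotent state and of neural precursors. The flank lies on the far side of the SCR from its target gene. No expression marker can be read from 4C, so the labels were checked on the contact with Sox2 itself: its 6 fragments held 34711 and 31776 reads per 1000000 library reads (RPM) in ES replicates 1 and 2, and 5407 in NPC. In such pools of cells, contact in more cells and more frequent contact per cell cannot be told apart.

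The flank opened with 474 kb in which GENCODE vM1 annotates no gene, and 32.5% of its bases lay in genes. Of its 10 genes, 7 are protein coding. In order of distance from the bait these are Atp11b, a flippase of membrane phospholipids; Dcun1d1, a factor that promotes neddylation of cullins; Mccc1, a subunit of the leucine-degrading enzyme methylcrotonoyl-CoA carboxylase; Ccdc144b; Acad9, which helps to assemble mitochondrial complex I; D3Ertd254e; and Qrfpr, the receptor of the neuropeptide QRFP. The others are U6, a spliceosomal small nuclear RNA, and the noncoding Gm15952 and A330050B17Rik.

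The 4 sequences below come from the places of the flank that stood above the distance trend in both ES libraries, described further on, and show what a read in this assay reports: a stretch between neighbouring DpnII sites, with or without a Csp6I site for the second cut. Each is the fragment of at most 300 bp in its place with the highest lower-of-2 level in ES cells, read 5′ to 3′ on the plus strand of mm9. Capitals mark the GATC sites that bound a fragment and any GTAC inside. None overlaps an annotated exon, and in all 4 the 27 bases at both ends occur at no other DpnII end of the genome.
Fragment at 1390 kb, chr3:36052016-36052103: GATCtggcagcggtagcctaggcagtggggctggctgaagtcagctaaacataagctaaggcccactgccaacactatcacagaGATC
Fragment at 1160 kb, chr3:35826820-35827040: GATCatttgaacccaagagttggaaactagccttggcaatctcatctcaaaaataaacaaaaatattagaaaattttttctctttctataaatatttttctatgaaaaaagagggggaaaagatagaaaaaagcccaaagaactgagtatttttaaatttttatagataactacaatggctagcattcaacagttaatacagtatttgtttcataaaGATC
Fragment at 960 kb, chr3:35624193-35624472: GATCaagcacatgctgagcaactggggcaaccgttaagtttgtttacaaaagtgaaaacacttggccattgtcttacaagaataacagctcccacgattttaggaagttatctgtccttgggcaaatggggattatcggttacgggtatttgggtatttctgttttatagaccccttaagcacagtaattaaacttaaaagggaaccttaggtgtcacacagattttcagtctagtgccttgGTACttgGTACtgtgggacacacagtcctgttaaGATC
Fragment at 630 kb, chr3:35294469-35294673: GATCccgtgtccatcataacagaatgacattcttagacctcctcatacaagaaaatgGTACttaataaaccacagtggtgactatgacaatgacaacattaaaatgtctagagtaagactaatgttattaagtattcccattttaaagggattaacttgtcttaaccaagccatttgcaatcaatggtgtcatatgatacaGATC
The fragment at 1390 kb, between genes, had 4702 reads in ES replicate 1, 37 in ES replicate 2 and 5 in NPC. The fragment at 1160 kb, in an intron of Dcun1d1, had 117, 6 and 35 reads. The fragment at 960 kb, between genes and the only one with a pair of GTAC sites, had 2363, 1134 and 12 reads. The fragment at 630 kb, in the stretch without genes, had 3020, 1734 and 4043. All 4 were thus covered in all 3 libraries, at read numbers that differed between the ES replicates by far more than the library totals did, except at 630 and 960 kb.

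The libraries held 6447786 (ES replicate 1), 3915756 (ES replicate 2) and 2889643 (NPC) reads on chromosome 3, and the deepest had reads on the fewest fragments. Reads on 1 fragment can be PCR copies of 1 ligation, so a fragment was also scored as detected when it had at least 1 read; intervals below cover counting error only.

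ES replicate 1 and NPC shared fragments at low read numbers. Among the 366742 fragments more than 5 Mb from the bait, where ligations are sparse, 52.8% of the 2165 detected in ES replicate 1 were also detected in NPC, against 4.94% in ES replicate 2. Of the 3281 detected in ES replicate 2, 5.18% were detected in NPC. The shared fragments were low in 1 of the libraries or in both: fragments with at least 1000 reads in ES replicate 1 were found in NPC in 84.6% of cases, with a median of 3 reads there, and fragments with 1 to 9 reads were found in 61.6%, with a median of 6. With at least 10 reads required in both libraries, the shares more than 5 Mb away were 3.19% for ES replicate 1 in NPC, 2.32% for ES replicate 1 in ES replicate 2 and 1.79% for ES replicate 2 in NPC. In the flank the corresponding shares were 86.0%, 62.9% and 65.1% at 1 read, and 50.7%, 51.9% and 43.6% at 10 reads. Where these shared reads came from was not tested. Steps, raised places and totals are therefore given at 1 read and at 10 reads. The higher threshold does not remove all such sharing in the flank: its 86 fragments with at least 1000 reads in ES replicate 1 were all found in NPC, with a median of 22.5 reads there.

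**Figure D1:**
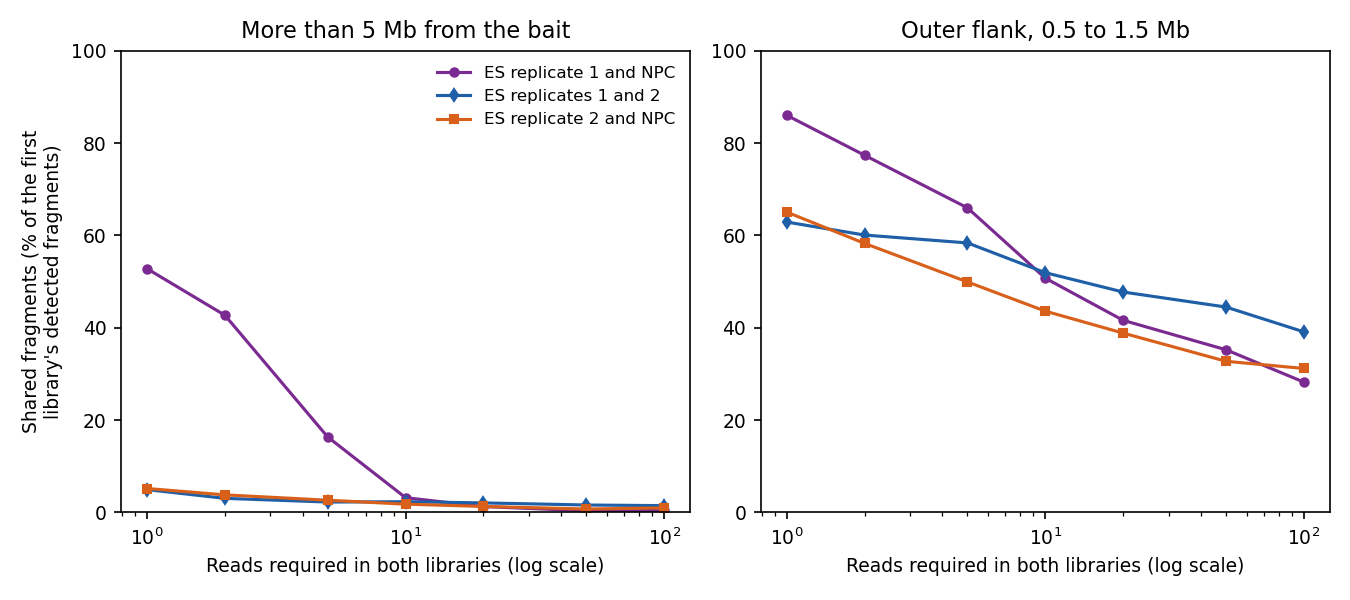
Fragments detected in both libraries of a pair, as percent of those detected in the library named first, against the number of reads required in both (log axis), more than 5 Mb from the bait (left) and in the outer flank (right). Far from the bait the pair of ES replicate 1 and NPC stands at 52.8% at 1 read and at 3.19% at 10 reads, where the other pairs stand at 2.32% and 1.79%.

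Across the flank, 601 fragments were detected in ES replicate 1, 827 in ES replicate 2 and 931 in NPC. These are 24.1% (95% exact binomial interval 22.4 to 25.8), 33.1% (31.3 to 35.0) and 37.3% (35.4 to 39.2). The ES mean was 28.6% ± 6.40 (SD, n = 2), 8.69 percentage points below NPC. At 10 reads the shares were 13.5%, 23.1% and 19.9%, so that NPC lay between the ES replicates and the ES mean was 1.62 percentage points below it. The ES replicates thus differed from each other by more than the ES mean did from NPC at either threshold. A fixed cutoff of 10 reads is a larger share of a smaller library, and NPC had the fewest reads. At a common depth of 2889643 reads, the expected shares at 1 read were 20.5%, 32.1% and 37.3%. With 2 libraries against 1, an exact permutation test cannot give a p below 0.333, so none was run. For comparison, 64.9%, 76.1% and 77.6% of the 1183 fragments 20 to 500 kb past the SCR were detected.

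Detection differed with the sequence features of the fragments. Of the flank's fragments, 483 had no end whose 27 bases are unique among the DpnII ends of the genome, and 2.48%, 3.11% and 3.31% of these were detected in ES replicate 1, ES replicate 2 and NPC. For the 1598 fragments with unique bases at both ends the shares were 32.9%, 45.6% and 49.9%. Fragments with a GTAC site were detected more often (30.6%, 38.0% and 44.8% of 1124) than those without (18.7%, 29.1% and 31.2% of 1374). The 500 shortest, of up to 82 bp, were detected in 15.8%, 19.8% and 24.4% of cases, and the 497 of 640 bp or more in 28.6%, 42.7% and 48.9%. Across 5 classes of GC content the shares ran from 21.6% to 26.0% in ES replicate 1, from 27.6% to 38.1% in ES replicate 2 and from 34.4% to 40.2% in NPC.

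Seen in 50 kb steps, detection fell across the flank, with a second rise near 1 Mb. Detection was highest at 550 to 600 kb, where 62.5% of 104 fragments had a read in ES replicate 1 and 76.9% in both ES replicate 2 and NPC. Fragments with a unique end showed an even stretch from 500 to 750 kb, at 50.5% to 65.0%, 68.3% to 80.0% and 73.3% to 79.2%. Detection then dropped over 100 kb. From 700 to 750 kb, all fragments stood at 51.0%, 65.6% and 69.8%; from 800 to 850 kb they stood at 17.7%, 33.5% and 33.5%, and from 850 to 900 kb at 15.5%, 24.3% and 25.0%. At 10 reads the drop was from 36.5%, 50.0% and 55.2% to 10.1%, 21.5% and 15.8%. All 3 libraries made it over the steps from 750 to 850 kb, in DNA with no annotated gene, but not evenly. From 750 to 800 kb all fragments stood at 35.2%, 50.8% and 63.9%, so NPC fell mostly in the next step. The step from 800 to 850 kb also held fewer fragments with a unique end (67.7%) than that from 700 to 750 kb (90.6%). Among those fragments the drop was from 56.3%, 72.4% and 75.9% to 26.2%, 46.7% and 48.6%.

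The step from 950 to 1000 kb (35610501 to 35660500), which holds U6 and the start of Atp11b, stood above its neighbours in the detected share of every library. There 49 of 130 fragments were detected in ES replicate 1, 62 in ES replicate 2 and 65 in NPC (37.7%, 47.7% and 50.0%). In the step before, the shares were 22.9%, 24.3% and 30.7%, and in the step after 16.0%, 27.7% and 31.1%. At 10 reads this step had 18.5%, 35.4% and 19.2%, against 10.0%, 19.3% and 10.7% before and 7.56%, 15.1% and 12.6% after. Reads rose there in the ES libraries, from 2083 and 2580 RPM in the step before to 7403 and 4092, but not in NPC, which had 1996 before, 1919 here and 1823 after. Beyond it detection fell again, with a smaller rise from 1150 to 1250 kb in ES replicate 2 (35.6% and 34.6%) and NPC (36.4% and 32.7%) where ES replicate 1 stood at 16.9% and 16.3%. The last step, 1450 to 1500 kb, within and past Qrfpr, had the lowest shares of the flank: 4.51%, 6.77% and 7.52%.

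**Figure D2:**
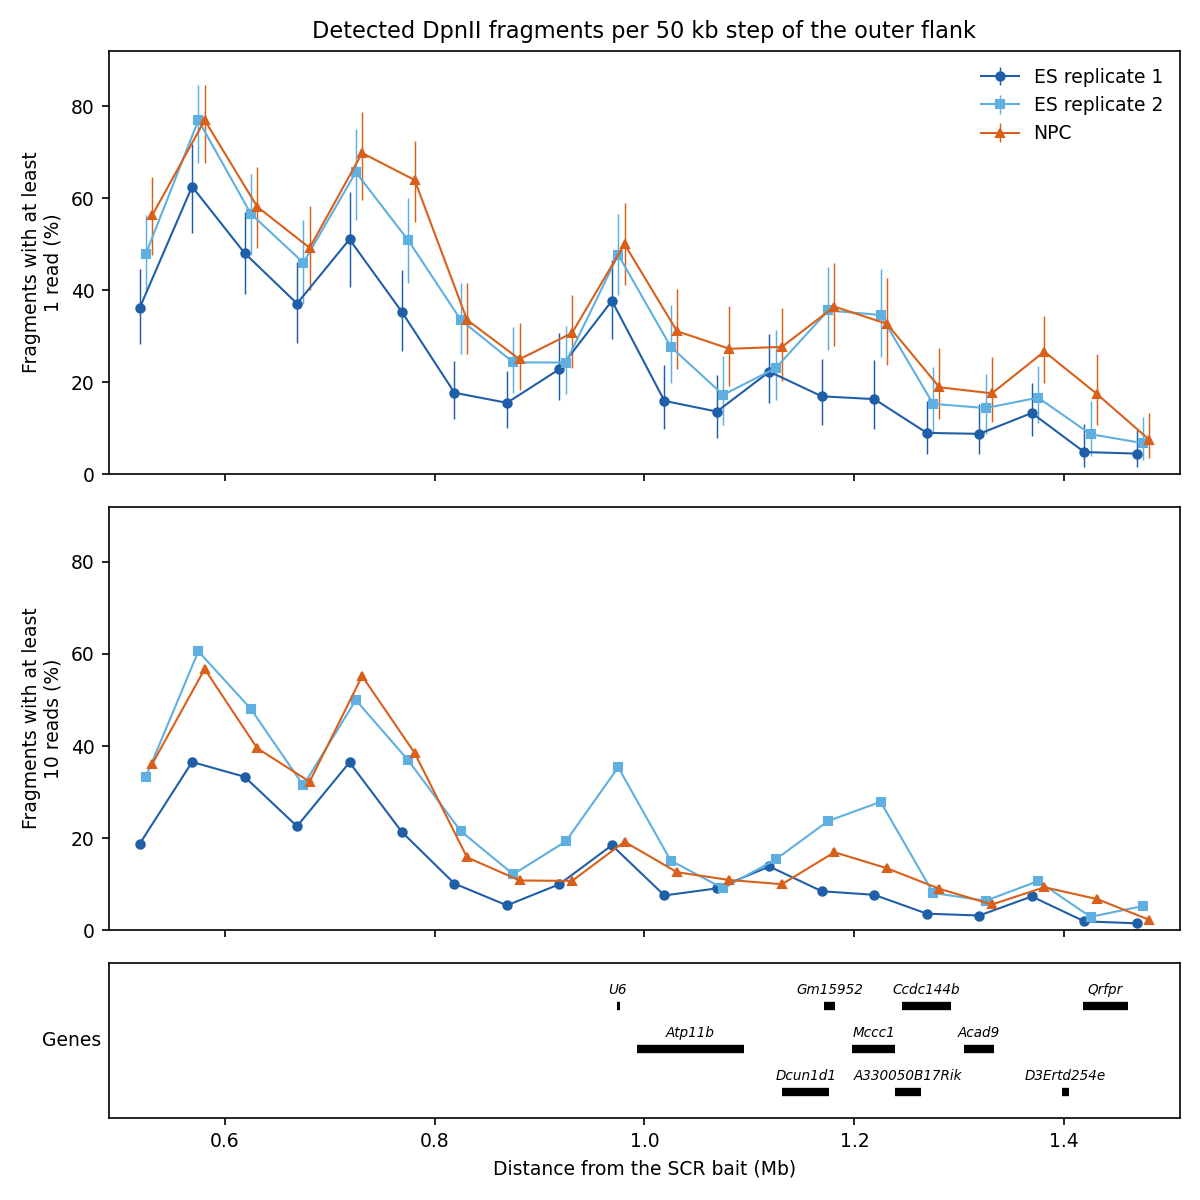
Percent of DpnII fragments with at least 1 read (top, bars: 95% exact binomial intervals) and at least 10 reads (middle) per 50 kb step against the distance from the bait in Mb, for the 2 ES libraries and NPC, with the annotated genes below. All 3 libraries drop between 750 and 850 kb and rise again from 950 to 1000 kb, and the order of ES replicate 2 and NPC differs between the panels.

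The order of the libraries was alike from step to step at 1 read and not at 10. ES replicate 1 had a lower share than ES replicate 2 in 20 of 20 steps and than NPC in 20 of 20. Both ES libraries lay below NPC in 17 of 20 steps, where the same held for 75% of the 60 steps within 1.5 Mb on both sides of the bait. At 10 reads both lay below NPC in 7 of 20 steps, against 25% of all 60, and both above it in 1, against 20%. ES replicate 2 was then above NPC in 13 steps and ES replicate 1 in 1. Across the 20 steps Pearson's r of the detected share was 0.963 between the ES replicates, 0.960 between ES replicate 1 and NPC and 0.978 between ES replicate 2 and NPC; these steps share the fall with distance and the fragment map, and low reads in the case of ES replicate 1 and NPC. At 10 reads r was 0.947, 0.953 and 0.939.

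Reads followed the same fall with more scatter. The flank held 385726, 211575 and 272931 reads, which are 5.98%, 5.40% and 9.45% of the library in ES replicate 1, ES replicate 2 and NPC. The ES mean of 5.69% ± 0.409 (SD, n = 2) was 0.603 times the NPC value, and that gap was wider than the gap between the ES libraries. The lower ES share was not particular to this flank. From 20 to 500 kb past the SCR, the libraries had 12.3%, 14.4% and 22.9% of their reads. A detected fragment had a median of 30 reads in ES replicate 1, 45 in ES replicate 2 and 12 in NPC. The 10 fragments with the most reads made up 26.1%, 20.3% and 21.9% of the reads in the flank. By step, the level in RPM ranged from 38.8 to 10358 in ES replicate 1, from 104 to 8440 in ES replicate 2 and from 188 to 16938 in NPC. ES replicate 1 was highest from 600 to 650 kb, ES replicate 2 from 550 to 600 kb and NPC from 700 to 750 kb. Across steps r was 0.869 between the ES replicates, 0.721 between ES replicate 1 and NPC and 0.858 between ES replicate 2 and NPC.

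**Figure D3:**
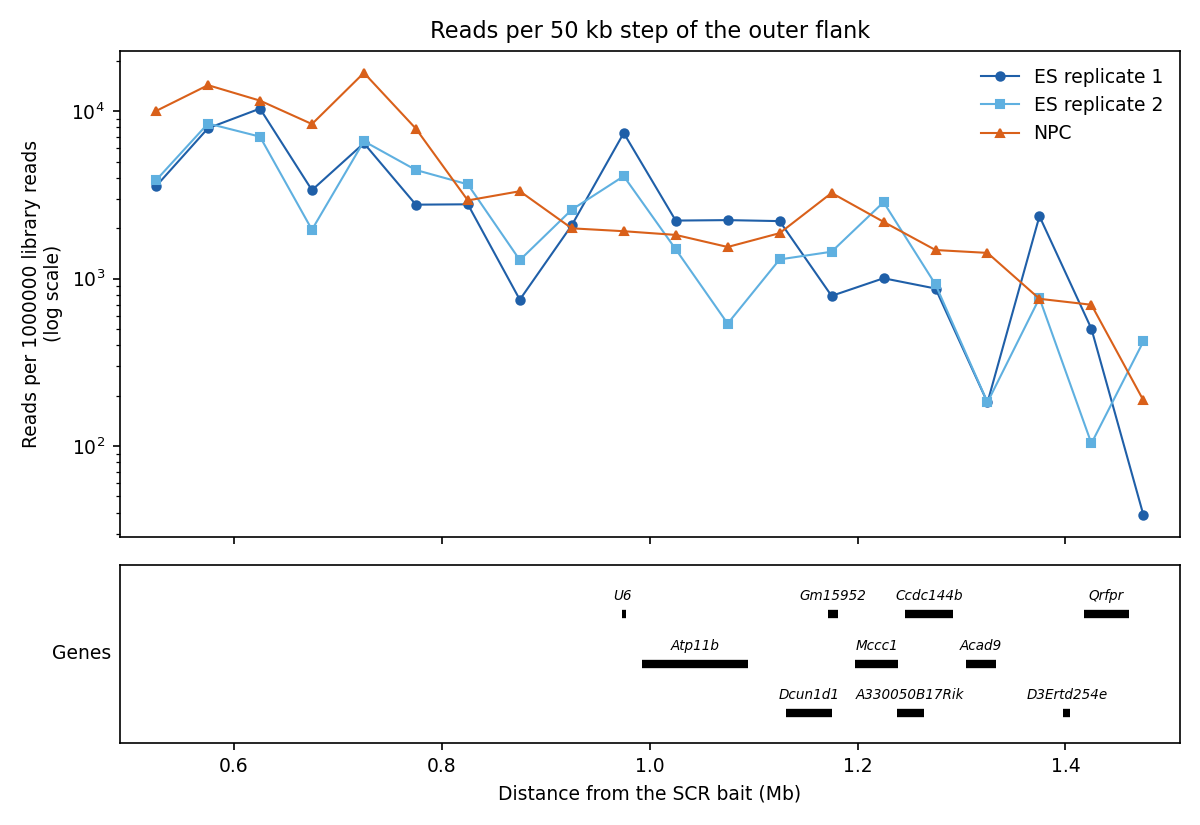
Reads per 1000000 library reads (RPM, log axis) in each 50 kb step against the distance from the bait in Mb, 1 line per library, with the annotated genes below. From 950 to 1000 kb the ES libraries stand at 7403 and 4092 and NPC at 1919, whereas NPC is highest of the 3 in every step before 800 kb.

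Raised places were sought in 10 kb bins. A bin was called raised in a library when its detected share, over a background that can only fall with distance, was among the 10 highest of the 100 bins of the flank. In ES replicate 1 the last bin inside stood at 1.75 times its background and the next, at 990 kb, at 1.73; in ES replicate 2 they stood at 1.65 and 1.63. These values chose the bins and were not tested. ES replicates 1 and 2 shared 6 bins, which form 5 places. Of the 6 bins, 4 were also among the 10 highest in NPC. The choice did not use NPC, but NPC shares the fragment map and, with ES replicate 1, low reads. At 10 reads the bins at 960, 1160 and 1390 kb were among the highest in NPC, and those at 630, 1170 and 1460 kb were not. With detection at 10 reads, NPC stood above its background in 5 of the 6, as it did in 56 of all 100 bins.

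The place from 960 to 970 kb (35620501 to 35630500), 3795 bp before U6 and upstream of Atp11b, was the one found most often: both ES replicates had it among their highest under 5 of 6 other ways of scoring. Among these ways, taking the 20 highest of the same score keeps every raised bin by construction. Of its 32 fragments, 16 were detected in ES replicate 1, 20 in ES replicate 2 and 20 in NPC. At 10 reads these were 9, 18 and 9, at 2.82, 2.98 and 2.29 times the background. It had 5188, 2533 and 1135 RPM. The fragment with the most reads was the same in both ES libraries, a fragment of 1006 bp (35620245 to 35621250) with 18765 reads in ES replicate 1, 3407 in ES replicate 2 and 25 in NPC. In NPC the most reads lay on its neighbour of 163 bp, with 6, 38 and 1865 reads. Without the top fragment of each library the place had 2278, 1663 and 490 RPM. The running mean over 21 fragments, the kind of profile 4See draws, uses the same reads. Beyond 800 kb it had its highest point at 963 kb in both ES libraries. In NPC that point was at 803 kb, at the border of this range. Over the whole flank the highest points were at 963 kb in ES replicate 1, 639 kb in ES replicate 2 and 700 kb in NPC.

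The place from 1160 to 1180 kb (35820501 to 35840500) holds the start of Dcun1d1 and of Gm15952, a transcript that overlaps it. Of 32 fragments, 11, 23 and 20 were detected in ES replicate 1, ES replicate 2 and NPC, and 7, 19 and 9 at 10 reads. ES replicate 1 was the lowest at both thresholds. It had 704, 1328 and 1802 RPM, and each library had its top fragment elsewhere in the place: the leading fragment of ES replicate 2, with 2448 reads, had no read in either other library.

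The place from 1390 to 1400 kb (36050501 to 36060500) holds the start of D3Ertd254e. Of 20 fragments, 5, 8 and 10 were detected, and 3, 6 and 3 at 10 reads. It had the highest mean ratio of the 5 places, 2.58, on these few fragments. Its 876 RPM in ES replicate 1 came to 83.3% from the fragment at 1390 kb printed above; ES replicate 2 had 169 and NPC 121.

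The other places were less firm. From 630 to 640 kb (35290501 to 35300500), in the stretch without genes, 14, 16 and 15 of 18 fragments were detected and the bin had 2142, 2873 and 3587 RPM. All 18 had a unique end, and set against fragments of that kind the bin stood at only 1.29, 1.22 and 1.11 times its background and was no longer among the highest. From 1460 to 1470 kb (36120501 to 36130500), at the start of Qrfpr, 2, 5 and 3 of 24 fragments were detected with 3, 84 and 16 reads in all, and 0, 3 and 0 fragments had 10 reads; no fragment was shared by the ES libraries.

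Gene starts were common among the raised bins, which was noticed after the values were seen. Of the 6 bins, 3 hold a gene start, as do 8 of all 100. The 8 bins with a gene start had a median ratio to background of 1.80, 1.69 and 1.503 in ES replicate 1, ES replicate 2 and NPC, against 1.06, 1.12 and 1.03 over all bins. These bins also held more fragments that can be mapped uniquely: a median of 100% of fragments in these bins had a unique end, against 94.0% over all bins, and among unique-end fragments the ratios were 1.46, 1.46 and 1.27, against 1.00, 1.00 and 0.998. With all fragments at 10 reads the ratios were 1.17, 2.00 and 1.52, against 0.994, 1.03 and 1.03 over all bins. In ES replicate 2 all 8 bins were above background at either threshold, against 52 of all 100 bins at 1 read and 53 at 10. In ES replicate 1, 7 of the 8 were at 1 read and 5 at 10, against 54 and 48 of all 100. At 10 reads the share in ES replicate 1 was thus close to that of all bins. In NPC 7 of the 8 were above background at either threshold, against 57 of all 100 at 1 read and 56 at 10.

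**Figure D4:**
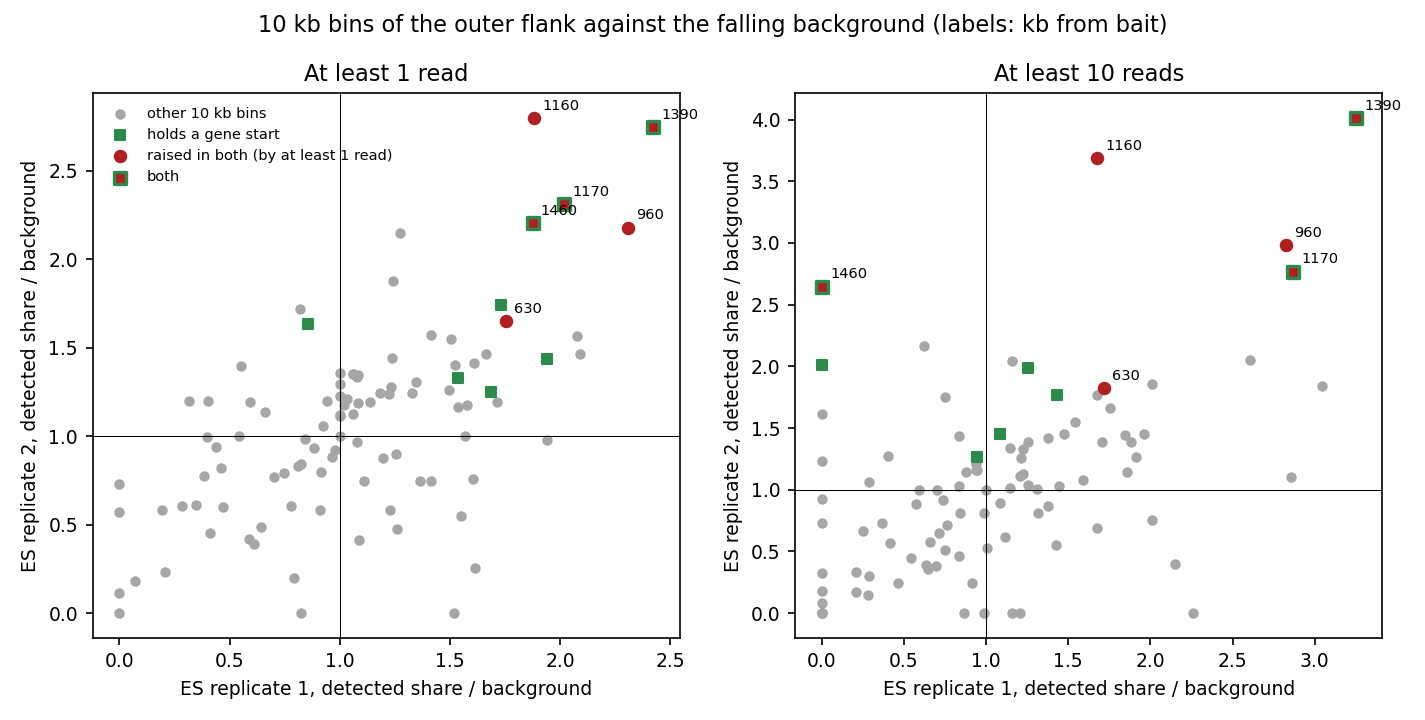
Detected share over the falling background in each 10 kb bin of the flank, ES replicate 1 on the x axis and ES replicate 2 on the y axis, with detection at 1 read (left) and at 10 reads (right). Red points are the 6 bins raised in both by the score at 1 read, labelled by kb from the bait, and green squares hold a gene start; at 10 reads the bin at 1460 kb has no fragment left in ES replicate 1.

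Among the 7 protein-coding genes the share of fragments with a read was highest at Dcun1d1 and lowest at Qrfpr in all 3 libraries. Atp11b, the nearest, had reads on 35, 57 and 71 of 222 fragments in ES replicate 1, ES replicate 2 and NPC. Its density was 46.4, 20.5 and 33.5 RPM per kb. Dcun1d1 had reads on 25, 37 and 38 of 96 fragments, and a density of 45.0, 53.6 and 45.3. Mccc1 was covered on 13, 35 and 27 of 91 fragments, with a density of 19.0, 67.2 and 51.3, so that ES replicate 1 stood apart from both other libraries. Further out, Ccdc144b had reads on 8, 13 and 19 of 98 fragments and Acad9 on 7, 10 and 16 of 68. D3Ertd254e was covered on 1, 3 and 3 of 12. Qrfpr, the most distant gene, had reads on 4, 9 and 16 of 89 fragments, with densities of 0.221, 8.93 and 15.8. Of the noncoding genes, Gm15952 had reads on 7, 12 and 10 of 20 fragments, shared in part with Dcun1d1, A330050B17Rik on 12, 12 and 17 of 53, shared in part with Mccc1 and Ccdc144b, and the 1 fragment of U6 in ES replicate 2 alone. From the U6 gene on, fragments inside genes were detected in 14.1%, 24.6% and 28.3% of cases and those between genes in 12.8%, 16.5% and 22.2%; among unique-end fragments ES replicate 1 had 15.6% inside and 16.0% between, ES replicate 2 27.0% and 20.6%, and NPC 31.1% and 27.9%.

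ES and NPC were then compared with edgeR's quasi-likelihood test, which takes its spread from the ES libraries and assumes that the lone NPC library varies like them. In 10 kb bins, none of the 100 bins of the flank passed an adjusted p of 0.05, while 1.72% of the 290 bins tested within 1.5 Mb were called higher in ES and 0% lower. At an unadjusted p under 0.05 there were 3 higher and 5 lower in the flank. In 50 kb steps, none of 20 was called by edgeR (0% of 60 higher, 0% lower; unadjusted, 1 higher and 2 lower in the flank). DESeq2 called 1 step higher and none lower, against 15% and 1.67% of all 60, and edgeR on library totals none, against 3.33% and 0%. DESeq2 gave no adjusted p to the steps from 850 to 900, 1000 to 1200 and 1250 to 1500 kb. These steps could not be called by it. In 10 kb bins DESeq2 called 4 higher and 6 lower of 100, against 9.31% and 4.48% of all 290. Some flank bins, the nearest at 1050 kb, also got no adjusted p from it. With edgeR on library totals the flank had 0 higher and 4 lower, against 5.17% and 5.17%; these 4 were 3 of the bins that DESeq2 called lower and the bin from 670 to 680 kb.

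The step with the highest log2 ratio of ES to NPC was that from 950 to 1000 kb. It had 7403 and 4092 RPM in the ES replicates and 1919 in NPC, and the ES replicates lay on the same side. The log2 ratio of ES to NPC was 2.26 (SE 0.62), with an adjusted p of 0.231 in edgeR and 7.04e-05 in DESeq2. Scaled by library totals in place of TMM, which sets the bulk of bins level, it was 1.58 (edgeR adjusted p = 0.170). Without the top fragment of each library the ES mean was 3.03 times the NPC value, and with it 2.996 times. The number of fragments detected there was 49 and 62 in ES cells against 65 in NPC, a log2 ratio of 0.07 (SE 0.14) in the same kind of fit. At 10 reads it was 24 and 46 against 25, a log2 ratio of 0.59 (SE 0.38, edgeR adjusted p = 0.802). The median of reads per detected fragment was 6 in ES replicate 1, 57.5 in ES replicate 2 and 8 in NPC, so that the higher sum of ES replicate 1 lay on few fragments.

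Of the bins higher in ES by DESeq2, 960 to 970 kb belongs to this step (log2 2.31, SE 0.71, edgeR adjusted p = 0.166, DESeq2 0.0128). The bin from 1140 to 1150 kb, in the body of Dcun1d1, had 1203 and 647 RPM in ES cells against 38.4 in NPC (edgeR adjusted p = 0.175, DESeq2 0.000208). It was covered on 10, 11 and 12 of 27 fragments, and on 7, 10 and 2 at 10 reads, and it entered the raised bins shared by the ES replicates when 10 reads were required. The bin from 920 to 930 kb had 632 and 1176 RPM against 92.1 (edgeR adjusted p = 0.303, DESeq2 0.0114), and the ES libraries did not share their top fragments, which had 2216 and 0 reads, and 2 and 3620. At 880 to 890 kb the ES libraries disagreed, with 21.7 and 990 RPM against 13.8 in NPC (edgeR adjusted p = 0.526, DESeq2 0.0314).

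The opposite change was steadiest in the stretch without genes. Bins at 510 to 520, 570 to 580 and 700 to 710 kb had 660 and 680, 824 and 653, and 880 and 1030 RPM in ES replicates 1 and 2. NPC had 5734, 5578 and 6881. The ES libraries were close to each other in each of these and NPC was far above both. The bins were named for their low p, which favours this pattern, so that it is no separate support. The log2 ratios were -2.59 (SE 0.54), -2.40 (SE 0.56) and -2.35 (SE 0.50). edgeR's adjusted p was 0.0588, 0.0779 and 0.0588, just outside the threshold; DESeq2 gave 0.00211, 0.00701 and 0.00222, and edgeR on library totals 0.00189, 0.00296 and 0.00158. The difference did not rest on 1 fragment: without each library's top fragment, NPC still had 3277, 3643 and 4062 RPM against 390 and 290, 436 and 414, and 171 and 411 in ES cells. Detection in these bins was 11, 16 and 21 of 27 fragments, 13, 12 and 15 of 17, and 8, 10 and 12 of 12, and at 10 reads 6, 9 and 13, 6, 10 and 14, and 6, 8 and 8.

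The lowest DESeq2 adjusted p among the bins lower in ES was at 1180 to 1190 kb, across the end of Gm15952, where ES replicates 1 and 2 had 6.67 and 24.5 RPM and NPC 1360 (DESeq2 adjusted p = 0.000797, edgeR 0.208). Reads lay on 5, 10 and 15 of its 34 fragments, and on 2, 5 and 8 at 10 reads. Without each library's top fragment it had 3.41 and 18.9 RPM in ES cells and 629 in NPC. The other bins rested on fewer fragments. At 1100 to 1110 kb ES cells had 50.6 and 1.79 RPM and NPC 1535, or 22.6 and 0.766 against 389 without the top fragments (DESeq2 adjusted p = 0.0203, edgeR 0.351). At 1330 to 1340 kb, across the end of Acad9, they had 9.77 and 1.02 against 809, of which 98.6% lay on 1 fragment (DESeq2 adjusted p = 0.0108, edgeR 0.358).

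**Figure D5:**
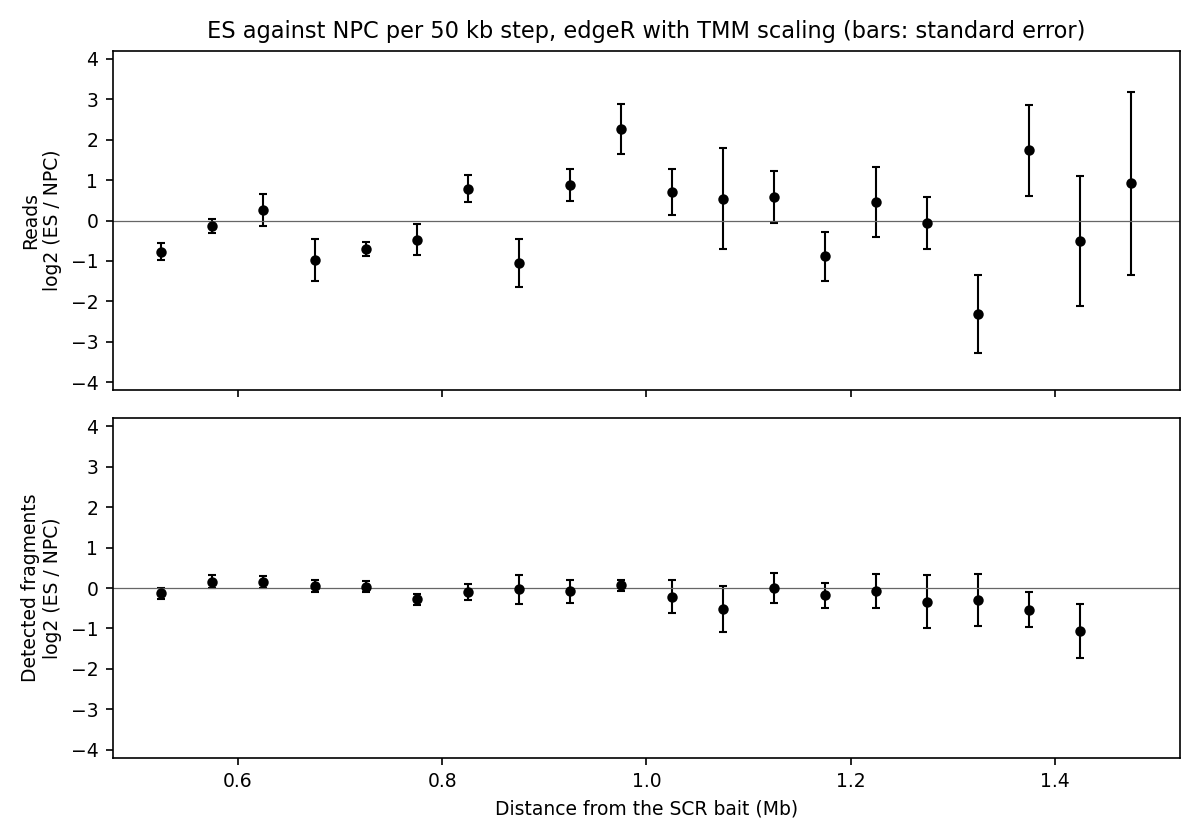
Log2 ratio of ES to NPC in each 50 kb step with its standard error (bars), for reads (top) and detected fragments (bottom), from edgeR with TMM scaling, against the distance from the bait in Mb. Reads are highest in ES from 950 to 1000 kb (2.26), whereas detected fragments stand at 0.07 there; the last step had too few detected fragments to be tested.

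For detected fragments, none of the 19 steps tested was called by edgeR or DESeq2, either way (0% of 57 steps higher and 0% lower within 1.5 Mb by each), and none had an unadjusted p under 0.05. The median log2 ratio over the flank was -0.09. For reads it was 0.10 over the 20 steps with TMM scaling and -0.57 with library totals; over all 60 steps it was -0.02 and -0.69, so that the scaling moved the flank and the other steps alike. Both ES libraries were below NPC in RPM in 11 of 20 steps, against 60% of all 60, and above it in 3, against 26.7%.

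At the same distances on the other side of the bait, beyond Sox2 and from within the long noncoding RNA Sox2ot (34003360 to 34581541) outward, fewer fragments were detected. Of 2479 fragments there, 15.9% (14.4 to 17.4), 22.2% (20.6 to 23.9) and 27.6% (25.8 to 29.4) were detected in ES replicate 1, ES replicate 2 and NPC. The flank past the SCR thus stood at 1.52, 1.49 and 1.35 times the detected share of its mirror, and at 1.53, 1.51 and 1.62 times at 10 reads. It was the higher of the sides in 14, 14 and 16 of 20 steps, and in 17 of 20 in each library among unique-end fragments, where the ratios were 1.49, 1.48 and 1.34. The order was not even over the flank. Among all fragments, every step in which the mirror was higher lay before 950 kb. From 850 to 900 kb the flank had 15.5%, 24.3% and 25.0% and the mirror 24.5%, 27.6% and 42.9%. From 950 kb on the flank was the higher in every step and library. Reads gave the same order in total, with 3.16%, 2.89% and 3.88% of the library in the mirror against 5.98%, 5.40% and 9.45%. By step, reads were higher in the flank in 16 of 20 in each library. Some steps beyond 950 kb went the other way: from 1300 to 1350 kb ES replicate 1 had 182 RPM in the flank and 735 in the mirror. The sides hold different sequence, and the libraries give no replicate of a locus, so that this was not tested.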

How the data were processed

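Chromatin contacts of the SCR bait were measured by 4C in 2 ES libraries and 1 NPC library. The authors trimmed the bait allowing 2 mismatches, aligned 27 nt of each read with Bowtie (the submitters' notes list 1.0.0, and mm9 as build) and deposited raw read counts per DpnII fragment of chromosome 3, neither normalized nor freed of PCR duplicates. Their user guide leaves out fragments with over 2% of all reads.

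All 391360 midpoints were matched to mm9 DpnII fragments. Fragments were scored for unique 27-base ends, GTAC sites and GENCODE vM1 genes. Counts in bins counted from the bait, 20 kb around it left out, were compared with edgeR 4.0.16 (R 4.3.3; TMM, quasi-likelihood, Benjamini-Hochberg, 0.05), with DESeq2 1.42.0 as an alternative; the fit was tested on simulated data. Backgrounds were isotonic fits (scikit-learn 1.9.0) over bins of at least 10 fragments; intervals are Clopper-Pearson at 95%. Detection takes 1 read, or 10 as an alternative. Named are the protein-coding genes of the flank, genes at or nearest to shared raised places, Sox2, Sox2ot, and bins past a threshold; U6, Gm15952 and A330050B17Rik complete the annotation. Printed sequences are the fragment of at most 300 bp with the highest lower-of-2 ES level in each of up to 4 places. The members and lists were chosen with earlier results of these data known. The 3 libraries of other baits were not used here.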

Additional observations from a re-analysis of the deposited data

How the results depend on the processing

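Alternatives covered the test, scaling, count filter, capping at the 99th percentile, detection threshold, depth, fragment choice, background, bin offset and the left-out ES replicate; those with unique-end fragments, gene starts, reads of fragments with at least 10 reads and the single step were chosen after seeing the data. Calls of the flank's 10 kb bins were 0 in the fit described and 10 with DESeq2 (4 higher, 6 lower in ES) and 4 with library totals (0 higher, 4 lower), and 0 without the filter or with capping. Calls of 50 kb steps were 0, and 1 with DESeq2, which left many of the flank's steps without an adjusted p. Calls of detected fragments were 0 under every alternative. The share of fragments with a read, ES minus NPC, was -8.69 percentage points, -1.62 at 10 reads, and between -13.2 and -4.16 without 1 ES replicate. It was -11.0 at a common depth, -10.5 with GTAC fragments and -10.6 with unique-end fragments. Reads in the flank, ES over NPC, were 0.603 of library reads, 0.513 of reads within 1.5 Mb, 0.647 of reads outside 20 kb and 0.652 after capping, and ranged from 0.572 to 0.633 without 1 ES replicate. Shared raised bins numbered 6, 3 by capped reads and 12 with the 20 highest taken; without a background they numbered 8, and 4 in each other setting. Of the 6, only 1 was kept by capped reads and 1 without a background. At 10 reads and with GTAC fragments 3 each were kept, with unique-end fragments 4 and with the 20 highest 6. Shifted bins cover other intervals than the 6, so how many they kept was not counted. The ratio of flank to mirror, averaged over libraries, was 1.45, 1.55 at 10 reads and 1.41 with GTAC fragments. The cause of these shifts was not tested. Leaving out an ES replicate leaves 1 library against 1, so the binned tests could not be fitted. No paired analysis was possible because NPC has 1 library. No test gives the spread of NPC, and PCR duplicates limit what a read count says of contact.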
